A study of Homo sapiens with 6 samples.

Results

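The genes described here encode the nuclear part of the mitochondrial respiratory chain and ATP synthase. They were taken by symbol: names starting with NDUFA, NDUFB, NDUFC, NDUFS, NDUFV, UQCR, ATP5 or COX4 to COX8, together with SDHA, SDHB, SDHC, SDHD and CYC1, protein-coding and not on the mitochondrial chromosome. This gave 100 genes of the 58381 in the count files, of which 96 passed the filter on low counts and were tested. By complex there were 7 core and 31 accessory subunits of complex I, 8 complex I assembly factors that carry the NDUFAF name, 4 genes of complex II, 10 of complex III, 19 of complex IV and 21 of complex V. NDUFA4 and NDUFA4L2 were placed in complex IV, where their products are found. The genes left out of the tests were COX4I2, COX6A2 and the read-through genes NDUFC2-KCTD14 and ATP5MF-PTCD1.

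RNA came from 786-0, an established clear cell renal carcinoma line that lacks functional VHL, and every library carries the label SETD2 KO, so the knockout is shared by all groups and no library with intact SETD2 is analysed here. Cells were given DMSO, decitabine at 100 nM or decitabine at 300 nM on each of 3 days, received fresh medium on day 4 and were collected on day 5. Each group had 2 libraries of poly-A-enriched RNA. The labels do not say whether they came from separate cultures or whether the knockout is a clone, so the p-values speak only of how far these libraries differ, which may be technical.

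Complex I passes electrons from NADH to ubiquinone, complex II passes them from succinate, complex III hands them to cytochrome c and complex IV reduces oxygen. Complexes I, III and IV pump protons, and complex V, the ATP synthase, uses the gradient to make ATP. All but complex II combine nuclear subunits with subunits encoded by mitochondrial DNA, and several complex IV subunits exist as isoforms restricted to testis, heart, skeletal muscle or lung. Decitabine, a cytosine nucleoside analogue, enters newly made DNA and holds DNA methyltransferases there, which lowers methylation as cells divide. Methylation was not measured in these libraries.

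The libraries held 89159112 to 96646427 reads assigned to genes. The 100 genes took 0.773% to 0.784% of them with DMSO, 0.744% to 0.831% at 100 nM and 0.908% to 0.94% at 300 nM. Renal and epithelial genes of the line were present in every library, with 80.2 to 254 CPM for PAX8, the renal transcription factor, and 757 to 2332 CPM for KRT8, a simple epithelial keratin. These ranges pool DMSO and both doses. Of the 7 kidney and renal carcinoma markers measured, 3 were higher and 3 lower at 300 nM, with log2 fold changes from -1.66 to 2.28. PAX8 was among the genes called there, so its presence in every library does not mean an unchanged level. Over all tested genes 34.8% were higher and 31.1% lower at 300 nM. At 100 nM 4 were higher and 2 lower. Immune, endothelial and fibroblast markers summed to low levels that were higher at 300 nM. Striated muscle markers, described below, went the other way, with means of 93 CPM under DMSO and 16.4 CPM at 300 nM. The 5 immune markers summed to 0.572 and 0.574 CPM under DMSO, 1.38 and 1.42 with 100 nM and 2.75 and 2.37 with 300 nM, and all 3 that passed the low-count filter were higher at 300 nM. PTPRC and CD3E, the pan-leukocyte and T cell markers, did not pass it and stayed at or below 0.106 CPM. A marker near 0 with DMSO can pass that filter only through decitabine libraries, and the largest log2 fold change among the 3 was 9.99. That all 3 were higher was thus partly set by the filter. At 300 nM the 3 endothelial markers summed to 3.01 ± 0.211 times the DMSO mean and the 2 fibroblast markers to 3.23 ± 0.131 times (SD of the 300 nM libraries only, n = 2), with 2 called higher in each list. The part of other cells in the results was not tested. SETD2 had 77.9 and 81.2 CPM under DMSO, 39.8 and 49.1 with 100 nM and 16.4 and 21.7 with 300 nM, and without a library of intact cells this level cannot check the genotype label. In such bulk samples fewer cells of a type and less RNA per cell cannot be told apart.

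At 300 nM most of these genes were higher than with DMSO, by amounts that mostly stayed under 2-fold, while some isoforms that were nearly silent with DMSO changed by more. Among those isoforms COX8C, COX7B2 and NDUFA4L2 passed the low-count filter only through decitabine libraries. Of the 96 tested genes 53 were higher (55.2%) and 15 lower (15.6%) at an adjusted p under 0.05 (edgeR's quasi-likelihood test, two-sided, Benjamini-Hochberg adjusted over all tested genes), with a median log2 fold change of 0.35. Among all 23160 tested genes 34.8% were higher and 31.1% lower, with a median of 0.05. At 100 nM 15 were higher and 9 lower (15.6% and 9.38%), against 24% and 18.7% of all tested genes, and the median was 0.06. Between the doses, 48 were higher at 300 nM than at 100 nM and 6 were lower (50% and 6.25%), against 20% and 23.4% of all tested genes. These directions depend on whether exon length is modelled, as described next.

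All 15 genes that were higher at 100 nM were also higher at 300 nM, and another 38 were higher at 300 nM without a call at 100 nM. Of the 9 that were lower at 100 nM, 5 were lower at 300 nM and 4 had no call there. None was called in opposite directions, but both dose comparisons use the same DMSO libraries. Both 300 nM libraries lay above both DMSO libraries for 64 of the 96 genes and below them for 21. The same count was not made over all tested genes, of which 34.8% were called higher and 31.1% lower at 300 nM. Call shares are another measure, so whether the non-overlap is particular to the respiratory genes cannot be told from it. By at least 2-fold, 6 genes were called higher and 3 lower at 300 nM, and 4 higher and 0 lower at 100 nM. The like count over all tested genes was not made, so these counts have no background and describe the genes only. At 300 nM the rises were COX7A2L and the low-level isoforms COX8C, COX7B2, COX6B2, COX7A1 and NDUFA4L2. Among these, COX8C, COX7B2 and NDUFA4L2 passed the low-count filter only through decitabine libraries, so their direction was largely set by the filter. The falls were NDUFA5, NDUFAF7 and NDUFV2, the last under 1 CPM. Among the 86 genes averaging 5 CPM or more the largest called rise was 2.35-fold. Leaving out 1 library at a time, 43 of the 53 higher and 9 of the 15 lower calls at 300 nM held in all 6 fits, and none changed sign. The 100 nM counts were less stable: without replicate 1 or 2 of DMSO 9 or 8 genes were higher and 4 or 3 lower. Of the 24 calls at 100 nM, 8 of 15 higher and 2 of 9 lower held in all 6 fits. Without replicate 1 of 100 nM 8 were higher, and without its replicate 2 only 4 were lower. Leaving out replicate 1 or 2 of 300 nM also moved the 100 nM counts, because these libraries enter the shared filter, scaling and estimate of the spread. Without replicate 2 of 100 nM the genes higher at 300 nM than at 100 nM numbered 24, and without replicate 2 of 300 nM the genes lower numbered 13. Between the doses 24 of the 48 higher and 3 of the 6 lower calls held in all 6 fits.

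The genes are short. Their merged exons have a median of 2.38 kb, against 4.21 kb over all protein-coding genes, and short genes were higher with decitabine as a class. Of the other coding genes in the shortest of 10 length bins (0.207 to 1.96 kb), 61.6% were higher and 10.6% lower at 300 nM, against 18.1% and 62.6% in the longest bin. With other coding genes weighted to the lengths of the 96 genes, 51.5% were higher and 22.8% lower at 300 nM with a median of 0.47, so the respiratory genes' 55.2% higher lay close to that background and their 15.6% lower lay under it. Over 6 ways of matching, which differed in the number of length bins, in the length used and in a minimum level, the matched share ranged from 51.2% to 52.3% higher and from 21.4% to 27% lower. At 100 nM 15.6% of the respiratory genes were higher, against 34.9% of genes of like length, and 9.38% lower against 14.9%, with the member counts moving by library as given above. From 100 nM to 300 nM the share higher was 50% against 33.7%, and the share lower 6.25% against 18.2%. These shares are descriptions and were not tested against each other.

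When the fit itself carried a term for exon length alone, the balance turned. With offsets for merged exon length 23 of the 96 were higher and 42 lower at 300 nM, against 30.4% and 38.7% of all tested genes. Offsets for length and GC content gave 41 higher and 34 lower, against 34.1% and 32.2% of all tested genes, so rises still outnumbered falls. These offsets are centred in each library and replaced uncentred ones. Uncentred length and GC offsets gave 33 higher and 54 lower, against 26.3% and 47.2% of all tested genes. The change was made after the counts were seen, and the uncentred version moved the median of all tested genes to -0.40. Length offsets moved that median to -0.22 at 300 nM, and length and GC offsets to -0.03. At 100 nM 22 were higher and 35 lower with centred length and GC offsets, against 28.3% and 21.9% of all tested genes. Uncentred ones gave 14 and 62, against 20.4% and 41.2%. Of the 53 genes higher at 300 nM, 22 had a negative value with length offsets (14 called lower) and 18 with length and GC offsets (13 called lower). Of the 15 lower genes, 4 turned positive with length offsets and 7 with length and GC offsets. The direction of single genes below is therefore relative to library-size scaling, and offset values are given beside the members whose called direction they turn. Whether length or GC content has a part in these changes was not tested.

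Summed per complex as RPKM (TMM-scaled CPM per kb of merged exons), the ratio to DMSO was largest in complex IV. Its 19 genes summed to 560 and 541 RPKM under DMSO, 711 and 622 with 100 nM and 969 and 862 with 300 nM, or 1.66 ± 0.137 times the DMSO mean at 300 nM (SD, n = 2). Complex I accessory subunits reached 1.45 ± 0.109 times, complex V 1.32 ± 0.0944 times and complex III 1.23 ± 0.11 times the DMSO mean at 300 nM. The corresponding ratio was 1.13 ± 0.131 for complex I core subunits and 1.05 ± 0.0747 for complex II, each within about 1 SD of no change. These SDs are the spread of the 2 libraries at 300 nM over the DMSO mean and leave out the spread of DMSO. At 100 nM the ratios lay between 0.873 for the complex I core and 1.21 for complex IV. In every complex the first 300 nM library summed higher than the second. The 13 subunits encoded by mitochondrial DNA moved the other way, at 0.674 ± 0.0631 times the DMSO mean at 300 nM.

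**Figure D1:**
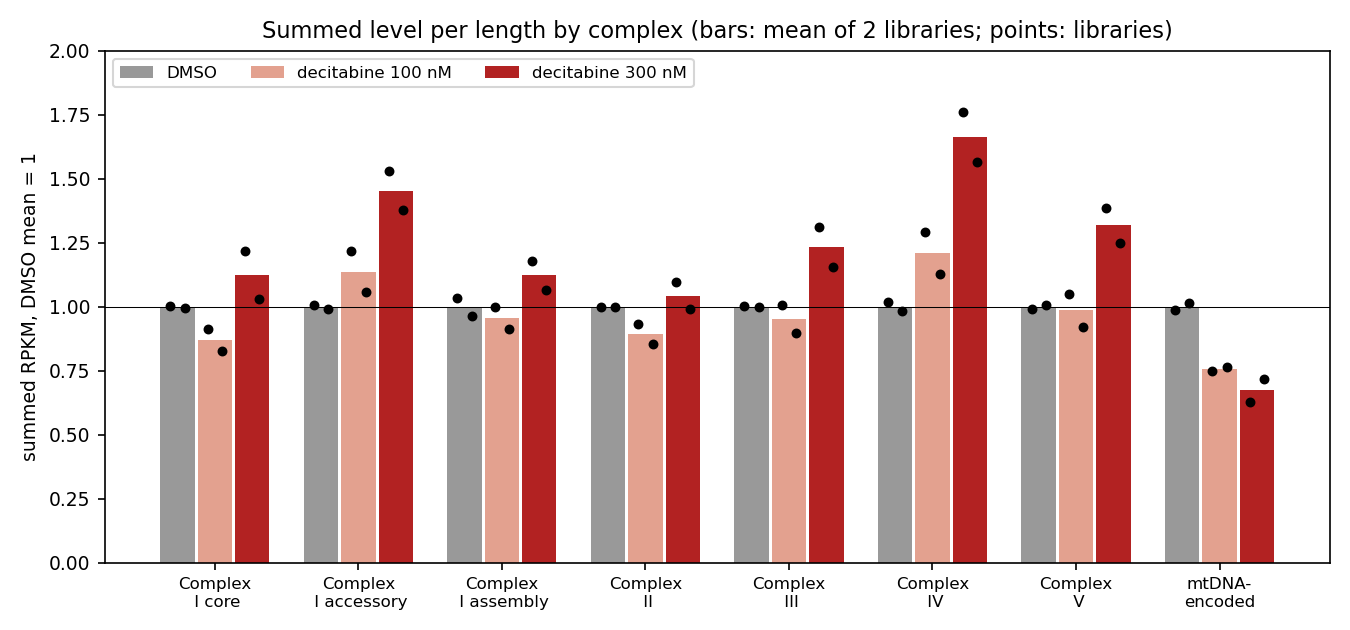
Summed RPKM of each complex divided by its DMSO mean, with bars for the mean and points for the 2 libraries of DMSO, 100 nM and 300 nM. Complex IV is highest at 300 nM (1.66 times), and the 13 subunits encoded by mitochondrial DNA fall below 1 at both doses.

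In the core of complex I, whose 7 nuclear subunits carry the flavin and the iron-sulfur clusters that lead electrons to ubiquinone, 2 genes were higher and 2 lower at 300 nM, and 0 higher and 2 lower at 100 nM. At 300 nM this was 28.6% in each direction, against 34.8% higher and 31.1% lower of all tested genes. At 100 nM 28.6% were lower, against 18.7%. At 300 nM length offsets gave 2 higher and 1 lower, and length and GC offsets 1 and 5. NDUFS1, the largest iron-sulfur subunit, had 137 and 147 CPM under DMSO, 125 and 123 with 100 nM and 110 and 117 with 300 nM. Both 300 nM libraries lay below both DMSO libraries. Its log2 fold change was -0.32 (standard error 0.10, adjusted p = 0.009), a call lost without replicate 2 of DMSO, and 0.43 with length offsets and 0.98 with length and GC offsets. NDUFS3 had 48.4 and 50.6 CPM under DMSO, 51 and 43.2 with 100 nM and 66.4 and 56.8 with 300 nM, and NDUFS8 had 90 and 87.7 CPM under DMSO, 82.2 and 72.3 with 100 nM and 124 and 96.4 with 300 nM. Both were higher at 300 nM, with log2 fold changes of 0.32 (standard error 0.12, adjusted p = 0.031) and 0.31 (standard error 0.12, adjusted p = 0.034). Under length and GC offsets these became -0.25 and -0.24, and both calls were lost without either DMSO library or replicate 1 of 300 nM. NDUFV1, which binds NADH and the flavin, was lower at 100 nM (log2 fold change -0.32, SE 0.11, adjusted p = 0.030), a call lost in 4 of 6 leave-one-out fits, with no call at 300 nM (log2 fold change 0.24, SE 0.11, adjusted p = 0.071). NDUFV2 was listed under 1 CPM in every library, and 28.4% of its exon bases are shared with another annotated gene on the same strand, so its call of lower at 300 nM (-2.19) is uncertain.

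Of the 30 tested accessory subunits of complex I, which surround the core and are needed for its assembly and stability, 17 were higher and 4 lower at 300 nM, and 4 higher and 2 lower at 100 nM. The shares were 56.7% and 13.3% at 300 nM, against 34.8% and 31.1% of all tested genes. At 100 nM they were 13.3% and 6.67%, against 24% and 18.7%. Length and GC offsets gave 12 higher and 15 lower at 300 nM and length offsets 6 and 15, so the excess of rises was not kept. The largest rises belonged to the membrane arm subunits NDUFA3 and NDUFC1. NDUFA3 had 11.9 and 11 CPM under DMSO, 14.2 and 13.2 with 100 nM and 25 and 20.6 with 300 nM. Both 300 nM libraries lay above the other 4. At 300 nM the log2 change was 1.00 (standard error 0.14, adjusted p = 7.9e-06). Length and GC offsets gave 0.23. NDUFC1 had 24.2 and 24.2 CPM under DMSO, 33.6 and 30.5 with 100 nM and 50.1 and 42.6 with 300 nM. The groups lay in separate steps, meaning that no 2 of them overlapped. Its log2 fold change was 0.94 (standard error 0.12, adjusted p = 4.0e-06) at 300 nM. At 100 nM it was 0.41 (standard error 0.12, adjusted p = 0.013), a call lost without either DMSO library or replicate 1 of 100 nM.

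The membrane arm subunits NDUFB7, NDUFB10 and NDUFB11 also rose at 300 nM. NDUFB7 had 84.8 and 85.9 CPM under DMSO, 108 and 91.5 with 100 nM and 184 and 138 with 300 nM. NDUFB10 had 77.2 and 72.9 CPM under DMSO, 85.7 and 76.5 with 100 nM and 132 and 108 with 300 nM. NDUFB11 had 57.1 and 56.2 CPM under DMSO, 76.2 and 63.4 with 100 nM and 118 and 91.4 with 300 nM. In all 3 both 300 nM libraries lay above the other 4, with the first 300 nM library the higher. Their log2 fold changes were 0.92 (standard error 0.13, adjusted p = 8.2e-06), 0.68 (standard error 0.12, adjusted p = 6.8e-05) and 0.89 (standard error 0.13, adjusted p = 1.3e-05). With length and GC offsets they were -0.28, -0.45 and -0.16. Of the exon bases of NDUFB11, 44.9% lie under a gene on the opposite strand, and counting was not stranded. NDUFS5, a subunit of the intermembrane space side, was highest per length in complex I, with a mean of 226 RPKM over all libraries. It had 108 and 102 CPM under DMSO, 137 and 116 with 100 nM and 137 and 143 with 300 nM. The decitabine groups overlapped each other but not DMSO. Its log2 fold change at 300 nM was 0.41 (standard error 0.11, adjusted p = 0.003), and -0.36 with length and GC offsets. This call was lost without replicate 2 of DMSO.

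Among the other rises, NDUFA8 had 62.9 and 65.3 CPM under DMSO, 86.6 and 78.5 with 100 nM and 105 and 98.5 with 300 nM. It moved in separate steps, with log2 fold changes of 0.36 (standard error 0.11, adjusted p = 0.010) at 100 nM, a call lost in 3 of 6 leave-one-out fits, and 0.67 (standard error 0.11, adjusted p = 3.2e-05) at 300 nM. NDUFS6, which binds zinc, had 104 and 96.9 CPM under DMSO, 122 and 99.8 with 100 nM and 157 and 135 with 300 nM. Only its 300 nM libraries stood apart (log2 fold change 0.54, SE 0.12, adjusted p = 7.2e-04). NDUFA2 had 18.4 and 16.5 CPM under DMSO, 21.5 and 20.1 with 100 nM and 28.4 and 25.8 with 300 nM. It also moved in separate steps (log2 fold change 0.63, SE 0.13, adjusted p = 3.5e-04 at 300 nM). NDUFAB1, the mitochondrial acyl carrier protein, had 67.5 and 66.4 CPM under DMSO, 78.8 and 69.9 with 100 nM and 81.3 and 84.8 with 300 nM. Its decitabine libraries lay above DMSO at both doses, with a call at 300 nM only (log2 fold change 0.31, SE 0.11, adjusted p = 0.017), lost without either DMSO library. Under length and GC offsets the 300 nM values of these 4 were -0.27, -0.33, -0.16 and -0.17.

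NDUFA5, an accessory subunit of the arm that reduces ubiquinone, had the largest fall among genes above 1 CPM. It had 28.3 and 33.3 CPM under DMSO, 19.2 and 21.3 with 100 nM and 8.8 and 12.1 with 300 nM, without overlap between any 2 groups. Its log2 fold change was -0.61 (standard error 0.15, adjusted p = 0.004) at 100 nM and -1.55 (standard error 0.16, adjusted p = 1.5e-07) at 300 nM, and with length offsets -0.97. The 100 nM call was lost without replicate 2 of DMSO. Its merged exons span 9.85 kb, and with length and GC offsets the 300 nM value was 0.47, against -1.88 with offsets for the length of its principal transcript. NDUFS4, a small subunit of the NADH-binding module that is mutated in Leigh syndrome, had 13.7 and 15.5 CPM under DMSO, 11.9 and 12.2 with 100 nM and 8.96 and 10.9 with 300 nM. Both 300 nM libraries lay lowest. On the log2 scale it changed by -0.55 (standard error 0.15, adjusted p = 0.003) at 300 nM. It kept its sign with length offsets (-1.51) and with length and GC offsets (-0.45); the call was lost without replicate 2 of DMSO. NDUFA10 had 105 and 113 CPM under DMSO, 88.5 and 82.7 with 100 nM and 92.3 and 91 with 300 nM. It lay below DMSO at both doses, with log2 fold changes of -0.35 (standard error 0.10, adjusted p = 0.010) at 100 nM and -0.25 (standard error 0.10, adjusted p = 0.038) at 300 nM. The 300 nM value was 0.11 with length and GC offsets, and the calls were lost in 3 of 6 leave-one-out fits at 100 nM and 4 of 6 at 300 nM.

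The complex I assembly factors, which help to build the enzyme and are not part of it, moved both ways, with 2 higher and 4 lower of 8 at 300 nM and 1 higher and 2 lower at 100 nM. The shares were 25% and 50% at 300 nM, against 34.8% and 31.1% of all tested genes. At 100 nM they were 12.5% and 25%, against 24% and 18.7%. Length offsets gave 1 higher and 6 lower at 300 nM, and length and GC offsets 2 and 2. NDUFAF3, which with NDUFAF4 assembles the ubiquinone-reducing module, had 35.9 and 36.2 CPM under DMSO, 56.6 and 52.1 with 100 nM and 79.8 and 61.2 with 300 nM. It moved in separate steps, and its log2 fold changes were 0.59 (standard error 0.13, adjusted p = 0.001) at 100 nM and 0.97 (standard error 0.13, adjusted p = 4.2e-06) at 300 nM. NDUFAF4 had 9.8 and 12.3 CPM under DMSO, 8.51 and 8.72 with 100 nM and 6.26 and 7.14 with 300 nM. It was lowest at 300 nM (log2 fold change -0.72, SE 0.16, adjusted p = 6.6e-04). Under length and GC offsets these partners were at 0.13 and 0.52 at 300 nM, and with length offsets at 0.39 and -1.26. NDUFAF7, a mitochondrial arginine methyltransferase, had 20 and 22.3 CPM under DMSO, 15.1 and 15.1 with 100 nM and 8.93 and 11.2 with 300 nM. No 2 groups overlapped, and its log2 fold changes were -0.49 (standard error 0.14, adjusted p = 0.010) and -1.07 (standard error 0.14, adjusted p = 4.6e-06) at 100 nM and 300 nM, with -0.21 at 300 nM under length and GC offsets. The 100 nM call was lost in 2 of 6 leave-one-out fits.

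NDUFAF5, which hydroxylates an arginine of NDUFS7, had 9.81 and 10.1 CPM under DMSO, 8.21 and 8.85 with 100 nM and 6.43 and 6.81 with 300 nM. It was lower at 300 nM (log2 fold change -0.59, SE 0.15, adjusted p = 0.002) but at 0.64 with length and GC offsets. NDUFAF2, a paralogue of NDUFA12, had 13.9 and 12.4 CPM under DMSO, 14.3 and 13.2 with 100 nM and 18 and 18.3 with 300 nM. Only the 300 nM libraries stood apart (log2 fold change 0.47, SE 0.13, adjusted p = 0.005; -0.56 with length offsets), a call lost without replicate 2 of DMSO. NDUFAF8 was highest per length in this group, with a mean of 29.9 RPKM. It had 49.9 and 42.3 CPM under DMSO, 36.6 and 31.5 with 100 nM and 45.5 and 41.3 with 300 nM. It was lower at 100 nM (log2 fold change -0.44, SE 0.13, adjusted p = 0.010), overlapped DMSO at 300 nM (log2 fold change -0.09, SE 0.13, adjusted p = 0.557) and was higher at 300 nM than at 100 nM (log2 fold change 0.35, SE 0.13, adjusted p = 0.034). The 100 nM call was lost in 2 and the call between the doses in 4 of 6 leave-one-out fits. At 300 nM it stood at -0.99 with length offsets and -1.13 with length and GC offsets. Of 42 tested assembly factors of other complexes and names, 12 were higher and 11 lower at 300 nM and 6 higher and 8 lower at 100 nM. The shares were 28.6% and 26.2% at 300 nM, against 34.8% and 31.1% of all tested genes. At 100 nM they were 14.3% and 19%, against 24% and 18.7%. Length offsets gave 6 higher and 20 lower at 300 nM, and length and GC offsets 14 and 12. Among them LRPPRC, which stabilises mitochondrial messenger RNAs, fell at 300 nM (log2 fold change -1.97, SE 0.14, adjusted p = 1.4e-09), as did LYRM7, which matures the Rieske protein (log2 fold change -2.09, SE 0.18, adjusted p = 2.5e-08), and both shrank to -0.85 and -0.55 with length and GC offsets.

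In complex II, succinate dehydrogenase, 2 of 4 genes were higher and 0 lower at 300 nM, as with length and GC offsets, while length offsets gave 1 and 1. Over all tested genes 34.8% were higher and 31.1% lower, and 4 genes are too few to set against those shares. SDHC, a membrane anchor, had 70.5 and 75.7 CPM under DMSO, 91.3 and 83.6 with 100 nM and 111 and 108 with 300 nM. It moved in separate steps and rose by a log2 value of 0.59 (standard error 0.10, adjusted p = 1.0e-04) at 300 nM, with 1.43 and 1.88 under length and under length and GC offsets. SDHB, the iron-sulfur subunit, had 82.8 and 80 CPM under DMSO, 95.6 and 86.2 with 100 nM and 113 and 105 with 300 nM. Its groups did not overlap either (log2 fold change 0.42, SE 0.10, adjusted p = 0.002 at 300 nM, but -0.14 with length offsets). SDHA, the flavin subunit, was the most abundant per length of the complex at 49.9 RPKM. It had 488 and 482 CPM under DMSO, 369 and 325 with 100 nM and 455 and 392 with 300 nM. Both doses lay below DMSO, with a call at 100 nM (log2 fold change -0.48, SE 0.10, adjusted p = 0.001), none at 300 nM (log2 fold change -0.20, SE 0.10, adjusted p = 0.105), and a rise between the doses (log2 fold change 0.29, SE 0.10, adjusted p = 0.033) that was lost in 4 of 6 leave-one-out fits. SDHA has pseudogenes that can take or lend reads, which was not measured.

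In complex III, 4 of 10 genes were higher and 2 lower at 300 nM, and 1 was higher and 1 lower at 100 nM. The shares were 40% and 20% at 300 nM, against 34.8% and 31.1% of all tested genes. At 100 nM they were 10% and 10%, against 24% and 18.7%. The balance turned with offsets, to 0 higher and 5 lower at 300 nM for length and 2 and 5 for length and GC. UQCRQ, a small subunit, had 55.3 and 51.5 CPM under DMSO, 73.4 and 63.9 with 100 nM and 103 and 85.6 with 300 nM. UQCR11, another, had 19 and 19 CPM under DMSO, 21.6 and 20.6 with 100 nM and 36.2 and 29.2 with 300 nM. Both moved in separate steps, and 20.8% of the exon bases of UQCRQ lie under a gene on the opposite strand. Their log2 fold changes at 300 nM were 0.82 (standard error 0.12, adjusted p = 1.3e-05) and 0.78 (standard error 0.13, adjusted p = 5.7e-05), and with length offsets -0.06 and 0.12. CYC1, the cytochrome c1 subunit and highest of the complex per length at 193 RPKM, had 361 and 360 CPM under DMSO, 323 and 279 with 100 nM and 542 and 423 with 300 nM. The 100 nM libraries lay below DMSO and the 300 nM libraries above it. The log2 fold changes were -0.26 (standard error 0.12, adjusted p = 0.084) at 100 nM and 0.42 (standard error 0.12, adjusted p = 0.005) at 300 nM, and 0.68 (standard error 0.12, adjusted p = 1.8e-04) between the doses. The 300 nM value was -0.49 with length and GC offsets.

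Of the paired core proteins of complex III, UQCRC2 was lower and UQCRC1 had no call (log2 fold change 0.26, SE 0.12, adjusted p = 0.059). UQCRC2 had 160 and 166 CPM under DMSO, 140 and 148 with 100 nM and 99.6 and 118 with 300 nM. No 2 groups overlapped, and its log2 fold change at 300 nM was -0.58 (standard error 0.11, adjusted p = 1.4e-04), with -0.36 under length and GC offsets. UQCRB, a ubiquinone-binding subunit, had 122 and 127 CPM under DMSO, 104 and 94.9 with 100 nM and 91.6 and 92.7 with 300 nM. It fell at 300 nM (log2 fold change -0.43, SE 0.10, adjusted p = 0.001), but stood at 0.15 with length offsets and 1.29 with length and GC offsets. Its merged exons span 9.71 kb. UQCRHL, an intronless copy of UQCRH, had no call at either dose.

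In complex IV, cytochrome c oxidase, 15 of 17 tested genes were higher and 0 lower at 300 nM (88.2% higher), and 8 were higher and 0 lower at 100 nM (47.1%). Over all tested genes 34.8% were higher at 300 nM and 24% at 100 nM. Complex IV genes had a median length of 1.92 kb. Of other coding genes of 0.207 to 1.96 kb, 61.6% were higher at 300 nM and 41.7% at 100 nM. The calls include COX8C, COX7B2 and NDUFA4L2, which passed the low-count filter only through decitabine libraries, while COX4I2 and COX6A2 did not pass. Length and GC offsets gave 14 higher and 2 lower at 300 nM, and length offsets 8 and 6, so the uniform direction was not kept. Among subunits at ordinary levels the largest rise was that of COX7A2L, the factor that joins complexes III and IV into supercomplexes. COX7A2L (ENSG00000115944.14; GRCh38 chromosome 2, 42333546 to 42425088) had 64.1 and 67.8 CPM under DMSO, 109 and 99.4 with 100 nM and 162 and 147 with 300 nM. No 2 groups overlapped, and its log2 fold change was 0.66 (standard error 0.11, adjusted p = 6.9e-05) at 100 nM and 1.23 (standard error 0.11, adjusted p = 2.1e-08) at 300 nM. The 300 nM value was 1.28 with length offsets and 1.82 with length and GC offsets, so it kept its direction.

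Of the subunits without a restricted isoform, COX5A had 76 and 73.5 CPM under DMSO, 92.5 and 81.6 with 100 nM and 116 and 103 with 300 nM. It lay above DMSO at both doses and was called at 300 nM (log2 fold change 0.55, SE 0.11, adjusted p = 2.8e-04), but stood at -0.34 with length offsets. COX5B rose at both doses (log2 fold change 0.53, SE 0.11, adjusted p = 7.7e-04 at 100 nM and log2 fold change 1.00, SE 0.11, adjusted p = 4.0e-07 at 300 nM), with 0.11 and 0.17 at 300 nM under length and under length and GC offsets. COX6C had no call at 300 nM (log2 fold change -0.01, SE 0.11, adjusted p = 0.932). COX7C rose by a log2 value of 0.31 (standard error 0.11, adjusted p = 0.019) and stood at -0.40 with length offsets. The call was lost without either DMSO library.

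Complex IV also has subunit isoforms that most tissues do not use. Among its tested genes COX8C, COX7B2, NDUFA4L2, COX6B2 and COX7A1 had the largest log2 fold changes at 300 nM. For COX8C, COX7B2 and NDUFA4L2 this was largely set by the low-count filter, which they passed only through decitabine libraries. COX4I2 and COX6A2 had too few reads for a test. The sequences show the 250 bases before the RefSeq start site (GRCh38.p14) for the 3 testis isoforms, because they were at or near 0 with DMSO and because CG dinucleotides, here in capitals, are where DNA methylation sits.
COX8C (chr14:93346932-93347181, plus strand): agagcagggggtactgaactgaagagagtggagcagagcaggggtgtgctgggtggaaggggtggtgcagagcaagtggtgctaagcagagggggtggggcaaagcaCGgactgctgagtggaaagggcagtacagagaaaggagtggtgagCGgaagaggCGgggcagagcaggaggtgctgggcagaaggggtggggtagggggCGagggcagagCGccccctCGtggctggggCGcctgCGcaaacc
COX7B2 (chr4:46909246-46909495, minus strand): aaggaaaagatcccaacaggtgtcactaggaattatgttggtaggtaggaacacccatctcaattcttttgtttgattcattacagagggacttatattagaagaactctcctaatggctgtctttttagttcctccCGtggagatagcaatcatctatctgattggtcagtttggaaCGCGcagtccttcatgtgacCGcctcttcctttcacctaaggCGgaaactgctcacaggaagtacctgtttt
COX6B2 (chr19:55354720-55354969, minus strand): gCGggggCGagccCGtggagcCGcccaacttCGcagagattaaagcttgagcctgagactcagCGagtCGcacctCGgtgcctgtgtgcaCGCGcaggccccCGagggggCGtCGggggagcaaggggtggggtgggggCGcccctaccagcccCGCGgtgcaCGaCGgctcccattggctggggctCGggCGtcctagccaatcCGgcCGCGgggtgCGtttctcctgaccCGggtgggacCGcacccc
The COX8C window holds 8 CG dinucleotides, that of COX7B2 5 and that of COX6B2 26. The same windows of their widely expressed counterparts hold 16 in COX8A, 13 in COX7B and 14 in COX6B1. RefSeq gave a promoter of 300 bases for 76 of the 100 genes. Their median was 22.5 CG dinucleotides, against 22 over 15842 coding promoters. Nothing in these letters tells whether the sites were methylated.

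COX8C (ENSG00000187581.2; GRCh38 chromosome 14, 93347191 to 93348356), the testis isoform of subunit 8, had 0 and 0 reads under DMSO, 8 and 8 with 100 nM and 82 and 88 with 300 nM. It thus went without a read in both DMSO libraries, where a count of 0 allows up to 3 reads, and was present in all 4 decitabine libraries. Against 3 reads over the DMSO group the level was at least 5.32-fold higher at 100 nM and at least 60.7-fold higher at 300 nM. COX8C passed the low-count filter only through the 300 nM libraries, so its p-value carries no support and is left out. In CPM it reached 0.991 and 0.929 at 300 nM. COX8A, the usual subunit 8, had 51.8 and 49 CPM under DMSO, 59.6 and 52.7 with 100 nM and 88.8 and 76.9 with 300 nM. The log2 difference at 300 nM was 0.72 (standard error 0.12, adjusted p = 3.8e-05) and became -0.39 with length offsets. Of the exon bases of COX8A, 34.5% are shared with another annotated gene on the same strand.

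COX7B2 (ENSG00000170516.16; GRCh38 chromosome 4, 46734827 to 46909235) showed the same order, with 0 and 0 reads under DMSO, 28 and 22 with 100 nM and 54 and 47 with 300 nM. Its level was at least 16.6-fold higher at 100 nM and at least 36.1-fold higher at 300 nM than 3 reads over the DMSO group. COX7B2 passed the low-count filter only through the decitabine libraries. COX7B, its counterpart, had 58.9 and 57.8 CPM under DMSO, 57.2 and 46.9 with 100 nM and 50.4 and 51.5 with 300 nM and no call at either dose. COX6B2 (ENSG00000160471.12; GRCh38 chromosome 19, 55349306 to 55354814) had 0.302 and 0.149 CPM under DMSO, 1.44 and 1.32 with 100 nM and 2.1 and 2.07 with 300 nM. The groups did not overlap, and the log2 fold change was 2.60 (standard error 0.34, adjusted p = 7.2e-06) at 100 nM and 3.20 (standard error 0.33, adjusted p = 2.3e-07) at 300 nM, with no call between the doses (log2 fold change 0.60, SE 0.28, adjusted p = 0.096). Of its exon bases 30.9% are shared with another annotated gene on the same strand, so its counts are uncertain. At 300 nM COX6B2 kept its direction with length offsets, and was at 2.60 with length and GC offsets. COX6B1, the highest complex IV gene per length at 126 RPKM, had 88.6 and 84 CPM under DMSO, 113 and 93.1 with 100 nM and 182 and 145 with 300 nM. It was higher at 300 nM (log2 fold change 0.92, SE 0.13, adjusted p = 5.5e-06) but at -0.17 with length and GC offsets.

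NDUFA4L2 (ENSG00000185633.10; GRCh38 chromosome 12, 57234903 to 57240715), a paralogue of NDUFA4 known as a target of HIF-1 in hypoxia, had 0.156 and 0.0638 CPM under DMSO, 0.866 and 0.628 with 100 nM and 1.51 and 1.35 with 300 nM. Every decitabine library lay above both DMSO libraries, and the log2 fold change was 2.75 (standard error 0.44) at 100 nM and 3.68 (standard error 0.43) at 300 nM. NDUFA4L2 passed the low-count filter only through the decitabine libraries, so its p-values are left out. The 300 nM value was 3.22 with length offsets and 2.93 with length and GC offsets. NDUFA4 itself had 95.8 and 97 CPM under DMSO, 141 and 128 with 100 nM and 151 and 156 with 300 nM. It moved in separate steps (log2 fold change 0.67, SE 0.10, adjusted p = 1.8e-05 at 300 nM, and 1.61 there with length and GC offsets). Even at 300 nM the mean of NDUFA4L2 was under 2 CPM, against over 150 for NDUFA4.

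Of the heart and muscle isoforms, one was higher at 300 nM and one was not seen with decitabine. COX7A1 (ENSG00000161281.10; GRCh38 chromosome 19, 36150922 to 36152869) had 0.531 and 0.457 CPM under DMSO, 0.418 and 0.4 with 100 nM and 2.07 and 1.63 with 300 nM. Only the 300 nM libraries lay above DMSO. Its log2 fold change was -0.27 (standard error 0.33, adjusted p = 0.547) at 100 nM and 1.90 (standard error 0.31, adjusted p = 4.2e-05) at 300 nM. Between the doses it was 2.17 (standard error 0.32, adjusted p = 3.7e-05), and with length offsets 0.86 at 300 nM. COX7A2, its widely expressed counterpart, had 73.1 and 72.8 CPM under DMSO, 102 and 91.8 with 100 nM and 134 and 124 with 300 nM. It moved in separate steps, with a log2 fold change of 0.82 (standard error 0.11, adjusted p = 2.7e-06) at 300 nM. COX6A2 had 3 and 4 reads under DMSO, 0 and 0 with 100 nM and 0 and 0 with 300 nM, too few for a test. Its counterpart COX6A1 had 31.1 and 30.8 CPM under DMSO, 34.8 and 32.2 with 100 nM and 49.4 and 45.4 with 300 nM (log2 fold change 0.61, SE 0.12, adjusted p = 1.8e-04 at 300 nM, -0.30 with length offsets).

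Genes that mark striated muscle were measured beside these isoforms. Of 9, 2 were higher (CKM and DES) and 7 lower at 300 nM (22.2% and 77.8%, against 34.8% and 31.1% of all tested genes). They summed to 100 and 85.6 CPM under DMSO, 6.92 and 7.61 with 100 nM and 17.2 and 15.6 with 300 nM. TTN, the giant sarcomere protein, had 58 and 55.8 CPM under DMSO, 2.05 and 2.11 with 100 nM and 1.72 and 1.7 with 300 nM. MYH7, a cardiac myosin heavy chain, fell to at most 0.0725 CPM with decitabine against 16 to 18.3 CPM with DMSO. None of the 9 was without reads in the DMSO libraries. Their part in the isoform results was not tested. COX4I2, the lung and oxygen-responsive isoform of subunit 4, had 0 and 1 reads under DMSO, 2 and 2 with 100 nM and 3 and 2 with 300 nM. The 5 reads at 300 nM against 1 with DMSO give a ratio of 5.36 (95% counting interval 0.6 to 253). COX4I1 had 286 and 288 CPM under DMSO, 366 and 305 with 100 nM and 542 and 460 with 300 nM and rose at 300 nM by a log2 value of 0.80 (standard error 0.11, adjusted p = 6.5e-06).

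**Figure D2:**
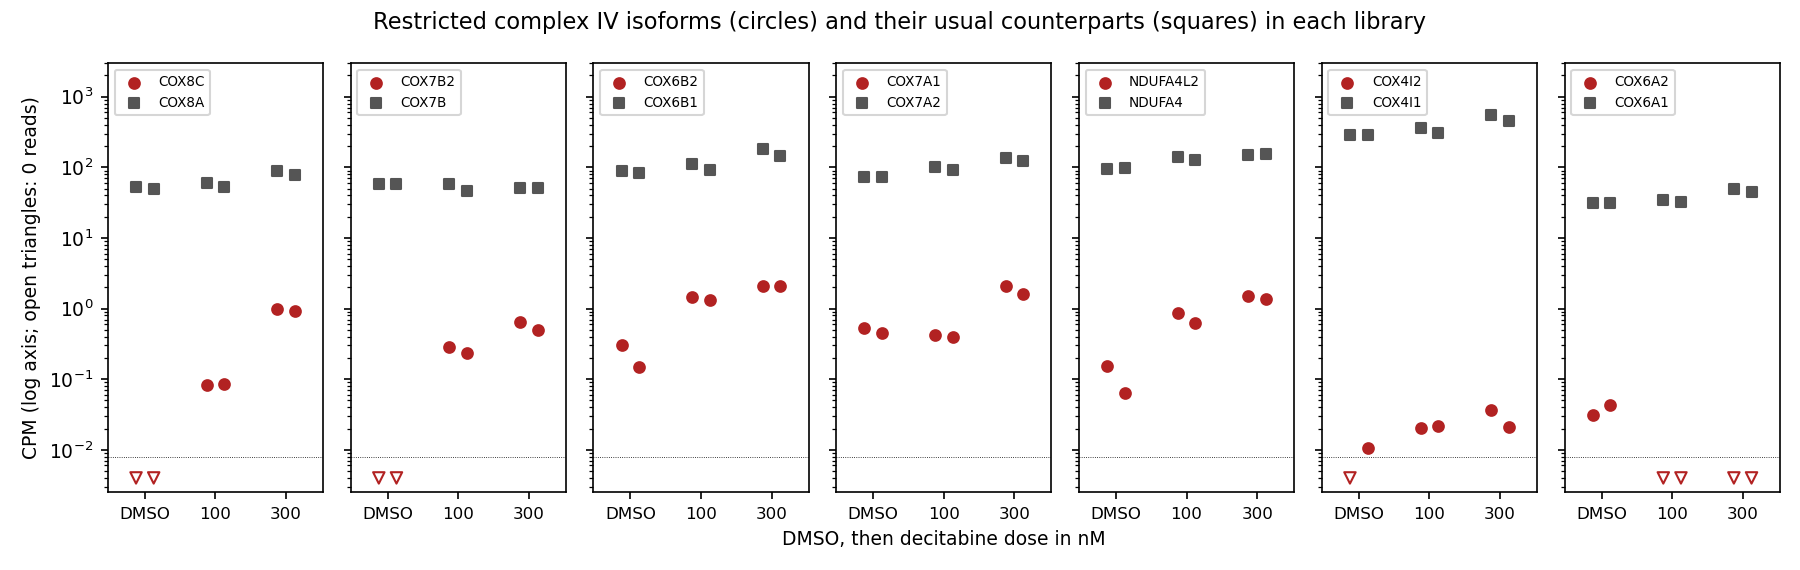
CPM on a log axis in each library for 7 restricted complex IV isoforms (circles) and their widely expressed counterparts (squares), with 2 libraries each of DMSO, 100 nM and 300 nM; open triangles mark 0 reads. COX8C and COX7B2 have 0 reads with DMSO and are seen in all 4 decitabine libraries, and in each library every restricted isoform lies well below its counterpart.

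In complex V 11 of 20 genes were higher and 3 lower at 300 nM, against 1 and 1 at 100 nM, and 10 were higher and 1 lower between the doses. The 300 nM shares were 55% and 15%, against 34.8% and 31.1% of all tested genes. At 100 nM they were 5% and 5%, against 24% and 18.7%. Between the doses they were 50% and 5%, against 20% and 23.4%. Under length and GC offsets the 300 nM counts were 8 higher and 5 lower, but length offsets gave 5 and 8 and principal transcript length offsets 5 and 7, so the direction was not kept. ATP5F1B, the catalytic beta subunit, was the most abundant of all 100 genes per length at 375 RPKM. It had 755 and 770 CPM under DMSO, 805 and 690 with 100 nM and 1181 and 1019 with 300 nM. Only the 300 nM libraries stood apart, with a log2 fold change of 0.53 (standard error 0.10, adjusted p = 2.8e-04), and -0.05 with length and GC offsets. ATP5F1D, the delta subunit of the rotor stalk, had 107 and 103 CPM under DMSO, 110 and 98.1 with 100 nM and 196 and 151 with 300 nM. ATP5MF, a small membrane subunit, had 51.5 and 52.4 CPM under DMSO, 60.2 and 49.9 with 100 nM and 88.9 and 76 with 300 nM. In both only the 300 nM libraries stood apart (log2 fold change 0.73, SE 0.12, adjusted p = 4.9e-05 and log2 fold change 0.67, SE 0.12, adjusted p = 1.3e-04), with -0.14 and -0.18 under length and GC offsets. ATP5MD, another small membrane subunit, had 53.2 and 54.4 CPM under DMSO, 63.7 and 56.3 with 100 nM and 79.4 and 79.8 with 300 nM. It lay above DMSO at both doses (log2 fold change 0.57, SE 0.11, adjusted p = 2.3e-04; -0.51 with length offsets). The 3 genes that encode the same subunit c of the membrane rotor, ATP5MC1, ATP5MC2 and ATP5MC3, were all higher at 300 nM, with log2 fold changes of 0.49, 0.60 and 0.65. With length offsets they were at -0.03, 0.44 and 0.87.

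In the peripheral stalk, which holds the catalytic head still, 2 of 4 genes were lower at 300 nM and none was higher. Over all tested genes 31.1% were lower and 34.8% higher, and 4 genes are too few to set against those shares. ATP5PB, its subunit b, had 176 and 184 CPM under DMSO, 123 and 114 with 100 nM and 88.6 and 108 with 300 nM. No 2 groups overlapped, and the log2 fold change was -0.61 (standard error 0.11, adjusted p = 2.7e-04) at 100 nM and -0.87 (standard error 0.11, adjusted p = 2.7e-06) at 300 nM, with -1.18 and -0.42 under length and under length and GC offsets. ATP5PO was lower (log2 fold change -0.43, SE 0.15, adjusted p = 0.020), a call lost without either DMSO library or replicate 1 of 300 nM, and ATP5PD and ATP5PF had no call (log2 fold change -0.05, SE 0.11, adjusted p = 0.707 and log2 fold change 0.22, SE 0.11, adjusted p = 0.090). Other annotated genes share 25.4% of the exon bases of ATP5PO and 23.1% of those of ATP5PF, which lies opposite GABPA. ATP5S, the coupling factor B, had 7.65 and 8.13 CPM under DMSO, 7 and 7.42 with 100 nM and 4.87 and 5.32 with 300 nM. It was lowest at 300 nM (log2 fold change -0.63, SE 0.15, adjusted p = 0.002) but at 0.91 with length and GC offsets. ATP5IF1, the inhibitor of the enzyme, had no call at either dose (log2 fold change 0.12, SE 0.10, adjusted p = 0.322 at 300 nM). ATP5ME, with 61.6% of its exon bases under a gene on the opposite strand, and ATP5MGL, an intronless copy of ATP5MG, had no call.

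The subunits encoded by mitochondrial DNA were mostly lower. Of 13, 12 were lower and 1 higher at 300 nM, and 10 were lower and 0 higher at 100 nM, with medians of -0.71 and -0.42. The shares lower were 92.3% and 76.9%, against 31.1% and 18.7% of all tested genes. MT-ND2 of complex I had 2880 and 2941 CPM under DMSO, 1483 and 1543 with 100 nM and 1298 and 1574 with 300 nM. Both decitabine groups lay below DMSO, with a log2 fold change of -1.02 (standard error 0.10, adjusted p = 1.2e-07) at 300 nM. MT-ATP6 of complex V had 2320 and 2531 CPM under DMSO, 1526 and 1594 with 100 nM and 1214 and 1467 with 300 nM (log2 fold change -0.86, SE 0.10, adjusted p = 1.3e-06). The single rise was MT-ND3 (log2 fold change 0.44, SE 0.10, adjusted p = 8.1e-04), and with length offsets all 13 were lower at 300 nM.

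Of 16 regulators of mitochondrial biogenesis, whose merged exons have a median of 5.28 kb, 3 were higher and 9 lower at 300 nM (56.2% lower, against 31.1% of all tested genes) and 1 higher and 10 lower at 100 nM. At 100 nM 62.5% were lower, against 18.7% of all tested genes. At 300 nM length offsets gave 3 higher and 7 lower, length and GC offsets 4 and 9, and principal transcript length offsets 4 and 7 with a median of 0.09. GABPA, an ETS factor that binds many respiratory promoters, had 31.2 and 33.5 CPM under DMSO, 15 and 19.9 with 100 nM and 3.81 and 5.02 with 300 nM. It moved down in separate steps, with a log2 fold change of -0.89 (standard error 0.16, adjusted p = 2.0e-04) at 100 nM and -2.87 (standard error 0.17, adjusted p = 1.9e-10) at 300 nM. With length and GC offsets the 300 nM value was -1.33. MTERF3, a repressor of mitochondrial transcription, had 29.1 and 32.1 CPM under DMSO, 15.2 and 17.5 with 100 nM and 6.86 and 9.65 with 300 nM (log2 fold change -1.89, SE 0.16, adjusted p = 1.8e-08; -1.34 with length and GC offsets). NRF1, the other main factor of respiratory promoters, had no call at 300 nM (log2 fold change 0.04, SE 0.12, adjusted p = 0.788). The core of the NRF1 motif (GCGCA, any base, then GCGC, on either strand) was in 17 of the 76 promoters of 300 bases (22.4%), against 8.57% of 15842 coding promoters. The ETS motif CCGGAAGT, on either strand, was in 9 (11.8%), against 6.19%. Such a match is a description of the letters, not a site of binding.

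In neighbouring pathways, the mitochondrial ribosome proteins had 36 of 78 higher and 18 lower at 300 nM and 4 higher and 13 lower at 100 nM. The 300 nM shares were 46.2% higher and 23.1% lower, against 34.8% and 31.1% of all tested genes. At 100 nM they were 5.13% and 16.7%, against 24% and 18.7%. The balance turned to 10 higher and 42 lower at 300 nM with length offsets and to 24 and 36 with length and GC offsets. Among them MRPL39 and MRPL1 fell at 300 nM (log2 fold change -1.50, SE 0.14, adjusted p = 4.1e-08 and log2 fold change -1.41, SE 0.16, adjusted p = 4.4e-07), and with length and GC offsets were at -1.28 and -0.57. In the citrate cycle and pyruvate oxidation 4 of 16 were higher and 5 lower at 300 nM, 4 and 8 with length offsets and 6 and 7 with length and GC offsets. DLD, the dihydrolipoamide dehydrogenase shared by several of its enzymes, had 93 and 96.1 CPM under DMSO, 50.2 and 65.9 with 100 nM and 21.1 and 24.6 with 300 nM (log2 fold change -2.05, SE 0.14, adjusted p = 8.0e-10), and SUCLA2, a succinyl-CoA ligase subunit, fell as well (log2 fold change -1.92, SE 0.13, adjusted p = 1.0e-09). With length and GC offsets these values were -0.82 and -0.61. Of the enzymes of ubiquinone synthesis and cytochrome c, 2 of 14 were higher and 5 lower at 300 nM, 1 and 7 with length offsets and 5 and 7 with length and GC offsets, with falls of PDSS1 (log2 fold change -1.04, SE 0.15, adjusted p = 8.4e-06) and COQ5 (log2 fold change -0.82, SE 0.12, adjusted p = 1.9e-05). Glycolysis had 11 of 19 higher and 3 lower at 300 nM, 10 and 3 with length offsets and 8 and 6 with length and GC offsets, led by the aldolase ALDOC (log2 fold change 3.30, SE 0.21, adjusted p = 3.9e-10) and the enolase ENO2 (log2 fold change 1.17, SE 0.10, adjusted p = 2.7e-08). Without offsets, 25% of the citrate cycle list were higher and 31.2% lower at 300 nM. The shares were 14.3% and 35.7% for ubiquinone synthesis and cytochrome c and 57.9% and 15.8% for glycolysis. All tested genes stood at 34.8% and 31.1%.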

How the data were processed

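Poly-A-enriched RNA of 786-0 cells was sequenced in 6 libraries. The authors deposited whole-number read counts per gene for 58381 genes, not normalised. STAR, SAMtools and featureCounts are named in the submitters' processing notes, and the file headers give featureCounts version 1.5.0-p3 with GENCODE 28 models. The commands recorded there set neither pairing nor strand: each mate counted as a read, from either strand. The submitters' processing notes name hg19, but all 56888 genes shared with the GENCODE 29 reference by versioned identifier have its GRCh38 coordinates. The deposited log2 matrix holds variance-stabilised values, made by the authors with settings not given in the sources used here, and entered as an alternative.

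After filterByExpr kept 23160 genes, library sizes were adjusted by TMM. Each comparison used edgeR's quasi-likelihood test, Benjamini-Hochberg adjusted over all tested genes, in 1 fit of the 6 libraries by group (3 residual degrees of freedom, biological coefficient of variation 11.8%; R 4.3.3, edgeR 4.0.16, limma 3.58.1, DESeq2 1.42.0). The fit was tested on simulated data. Gene types came from GENCODE 29. Offsets were natural splines of log length, with or without GC content of the longest transcript, over 12432 coding genes; they were first fitted by least squares without centring and then, after the resulting counts were seen, robustly with centring, and both are reported. Length matching used 10 bins. Intervals (95%, exact binomial) and floors (3 reads) cover counting error only, and reads of both mates are not independent molecules. Exons of 52 of the 100 genes overlap another gene.

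Members and lists were chosen with earlier results of these data known. Named genes were the complex IV isoform pairs, the 2 largest called rises and falls and the most abundant gene per complex, genes whose called direction at 300 nM turned with length and GC offsets, and the 2 list genes with the smallest p; others named were chosen after their values were seen.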

Additional observations from a re-analysis of the deposited data

How the results depend on the processing

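The 300 nM counts kept within 1.5 times under RLE size factors, DESeq2, no low-count filter, the 2 compared groups alone, the deposited matrix with limma and each library left out. Replicate numbers appear in the labels with no word that they pair libraries; replicate 1 minus replicate 2 differences correlated across genes at 0.13, 0.15 and 0.37 between groups. With the replicate block 26 genes were higher and 14 lower at 100 nM and 11 lower at 300 nM against 100 nM; with the 2 compared groups alone 26 were higher at 100 nM. The length-matched shares at 100 nM were computed without the block, so they cannot be set against its counts. Leaving out 1 library, with the other library of its group assumed to vary like the other groups, gave 8 to 24 higher and 3 to 14 lower at 100 nM, and between the doses 24 to 49 higher and 4 to 13 lower.

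Exon length changed the counts most, and the cause was not tested. In what follows the 3 comparisons are 300 nM against DMSO, 100 nM against DMSO and 300 nM against 100 nM, with genes higher and lower. Centred length offsets gave 23 and 42, 10 and 30, 23 and 24. Centred length and GC offsets gave 41 and 34, 22 and 35, 44 and 9, and with the replicate block 42 and 34, 24 and 33, 45 and 9. Centred offsets of principal transcript length gave 26 and 34, 11 and 19, 23 and 21. Uncentred offsets, the version run first, gave 20 and 54, 6 and 67, 32 and 21 with length, 33 and 54, 14 and 62, 40 and 13 with length and GC, 33 and 55, 15 and 62, 40 and 13 with the replicate block added, and 16 and 56, 6 and 67, 31 and 15 with principal transcript length. With centred principal transcript offsets 17 of the 53 higher and 4 of the 15 lower genes at 300 nM changed sign, 4 and 2 of them with a call. Those values are not counted among the single-gene values that follow, and single-gene values were not computed with uncentred offsets.

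The length-matched shares moved by more than counting error when principal transcript length or a minimum mean of 5 CPM was used, both added after results were seen. With principal length they were 21.4% lower at 300 nM, 33.6% higher and 14% lower at 100 nM and 16.3% lower between the doses. At 5 CPM they were 27% lower, 30.8% higher and 18.8% lower, and 40.8% higher and 22.7% lower. With both they were 52.3% higher and 25% lower, 29.4% and 17%, and 42% and 20.4%. At 5 CPM the median at 300 nM was 0.31 in the 86 respiratory genes and 0.31 in matched genes. As summed CPM without division by length, complex II at 100 nM was 0.831 times DMSO.

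Of 1499 values of 50 named genes over the alternatives, 1230 kept direction and call, 78 lost the call, 76 gained it and 115 changed sign with a call on either side; sign changes without a call were not counted. All 115 were under offsets. With length and GC offsets the 300 nM log2 values that changed sign were -0.17 for COX6B1, 0.49 for COX7B, -0.48 for COX8A, 0.47 for NDUFA5, -0.36 for NDUFS5, 0.52 for NDUFAF4, 1.29 for UQCRB, -0.49 for CYC1, -0.14 for ATP5F1D, -0.18 for ATP5MF, 0.91 for ATP5S, -0.05 for ATP5F1B, 0.98 for NDUFS1, 0.11 for NDUFA10, -0.33 for NDUFS6, -0.16 for NDUFA2, -0.27 for NDUFA8, -0.07 for ATP5MD, -0.25 for NDUFS3, -0.24 for NDUFS8, -0.01 for COX5A, -0.45 for NDUFB10, -0.17 for NDUFAB1, -0.28 for NDUFB7, 0.64 for NDUFAF5 and -0.16 for NDUFB11, and the 100 nM values were -0.26 for COX6B1, -0.40 for COX8A, 0.17 for NDUFA5, -0.20 for NDUFS5, -0.27 for NDUFAF2, -0.01 for UQCRQ, 0.36 for UQCRB, -0.26 for ATP5MF, 0.50 for ATP5S, 0.35 for NDUFS1, -0.26 for NDUFS6, -0.13 for NDUFA8, -0.26 for ATP5MD, -0.40 for NDUFB10 and -0.30 for NDUFB7. With the replicate block added they were the same to 2 decimals except -0.27 for COX6B1 at 100 nM, 1.28 for UQCRB at 300 nM, 0.35 for UQCRB at 100 nM, 0.49 for ATP5S at 100 nM, 0.34 for NDUFS1 at 100 nM, -0.27 for NDUFS6 at 100 nM and -0.17 for NDUFB11 at 300 nM. With length offsets the 300 nM values were -0.30 for COX6A1, -0.15 for COX6B1, -0.39 for COX8A, -0.69 for NDUFS5, -0.56 for NDUFAF2, -0.14 for SDHB, -0.06 for UQCRQ, 0.15 for UQCRB, -0.30 for CYC1, 0.07 for ATP5S, -0.09 for ATP5F1B, 0.43 for NDUFS1, 0.31 for NDUFA10, -0.35 for NDUFS6, -0.23 for NDUFA2, -0.44 for NDUFA8, -0.51 for ATP5MD, -0.34 for COX5A, -0.34 for NDUFB10, -0.51 for NDUFAB1, -0.20 for NDUFB7 and -0.01 for NDUFB11, and the 100 nM values were -0.32 for COX6A1, -0.27 for COX6B1, -0.39 for COX8A, -0.28 for NDUFS5, -0.44 for NDUFAF2, -0.05 for UQCRQ, -0.28 for NDUFS6, -0.19 for NDUFA8, -0.38 for ATP5MD, -0.38 for NDUFB10 and -0.33 for NDUFB7. The depth allows 0.031 to 0.0336 CPM behind a count of 0, which limits COX4I2, COX6A2 and the DMSO level of COX8C and COX7B2.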
